A study of Sus scrofa with 18 samples.

Results

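Tumour tissue from the nose of a DIK pig was compared with nose tissue of WT pigs, across all genes of a deposited count table. The comparison rested on 6 of the 18 libraries in the series, taken by their labels: 3 of DIK nose tumour and 3 of WT nose. DIK is a double knock-in pig line carrying elements of a Tet-on switch, which answers to doxycycline, and of the phiC31 integrase, a phage recombinase. The DIK founders and WT pigs of matching age were both given doxycycline, starting at 7 months, so the drug does not separate the groups, and tissue was taken 8 months after induction. The labels do not name the gene that the inserts switch on or the promoter that drives it. All DIK libraries came from the 1 founder that grew tumours, and the labels do not give the number of WT animals or say whether the libraries of a group were separate pieces of tissue. P-values therefore measure the spread between libraries, which may be technical. The other libraries carry the labels mouth and scrotum, with 6 each. They enter the same fit, so they inform the spread behind every p-value of the nose comparison. They also serve below to ask where the nose differed from them.

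Stratified squamous epithelium grows from a basal layer held to its base by hemidesmosomes. Its upper cells are tied by desmosomes, fill with keratins, and end as cornified cells whose shedding is timed by kallikrein proteases and whose lipids hold back water. The pig snout also holds serous glands, whose lipocalins and secretoglobins carry odorants and pheromones, and striated muscle that moves the nasal disc. In bulk tissue, fewer cells of a type and less RNA per cell cannot be told apart.

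The 3 DIK libraries held 4146150, 4143718 and 3522272 counts, and the 3 WT libraries held 418665, 2738124 and 5041470. At these depths 3 counts, the limit that a count of 0 allows, correspond to 0.728 to 0.819 CPM, the count per library after scaling to one common size, in DIK libraries and to 5.76, 1.10 and 0.641 CPM in WT libraries. The shallow WT library, replicate 1, stood apart from the other 2 WT libraries on the second principal component, which held 10.8% of the variance. DIK replicate 2 stood apart on the third component, with 4.28% of the variance. The first component, with 80.2%, separated DIK from WT, and log2 CPM correlated at 0.939 to 0.970 within DIK, 0.878 to 0.951 within WT and 0.494 to 0.565 between them. No pair of libraries held identical counts. A fold against a group with 0 counts is given below as a lower bound, with 3 counts over the 3 libraries of that group in place of 0, and a fold against a group with 1 to 3 counts carries its 95% counting interval. Where leaving out 1 library changed the fold of a called gene given below by over 1.5 times, its log2 difference without that library follows. None is given where 3 counts or fewer were then left in the group.

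Markers set for 18 cell types described the tissue behind the labels. The WT nose libraries held the lipocalin SAL1 at 51076, 88499.6 and 84241 CPM and the fast myosin MYH1 at 14079, 9709 and 16509.9 CPM, and the list of contractile muscle genes made up 14.4% to 21.4% of their scaled counts, against at most 0.173% in DIK tumours. Ciliated cell markers FOXJ1, DNAH5, DNAI1 and RSPH1, the olfactory neuron markers OMP and CNGA2, and cartilage markers ACAN, COL2A1, MATN1 and MATN3 reached at most 1.46 CPM in any of the 6 libraries. GNAL, the other olfactory neuron marker, had 2.43, 1.62 and 2.18 CPM in DIK tumours, against 0, 4.02 and 5.77 CPM in WT nose and was not called. The gland markers were mixed. Beside SAL1, AQP5 had 18.5, 32.6 and 25.7 CPM in DIK tumours, against 38.4, 72.3 and 42.3 CPM in WT nose and was not called, and BPIFA1 and MUC5B reached at most 2.19 CPM in any library. LPO, a peroxidase of secretions, had 1.70, 24.0 and 1.37 CPM in DIK tumours, against 0, 0.365 and 0.427 CPM in WT nose and was not called. By these markers WT nose tissue held muscle and, of the gland markers, SAL1 and AQP5, and markers of ciliated cells and cartilage were at or near 0. The DIK libraries held the squamous markers KRT5, TP63 and DSG3, and the T cell markers CD3D, CD3E and CD2 stayed below 3 CPM in every library.

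With edgeR's quasi-likelihood test and Benjamini-Hochberg adjustment over all 12895 genes tested, 5426 genes (42.1%) differed at an adjusted p under 0.05, 2830 (21.9%) higher in DIK tumours and 2596 (20.1%) lower. The median log2 difference over all tested genes was 0.03. The 3 libraries of one group lay wholly above those of the other for 7002 genes (54.3%). Without WT replicate 1, 5081 of 13596 genes (37.4%) were called, 2583 higher and 2498 lower, and 4812 of the 5426 calls were kept in the same direction. Lists below are read against these shares, since a list with about 2 in 10 members called in a direction is near the background.

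**Figure D1:**
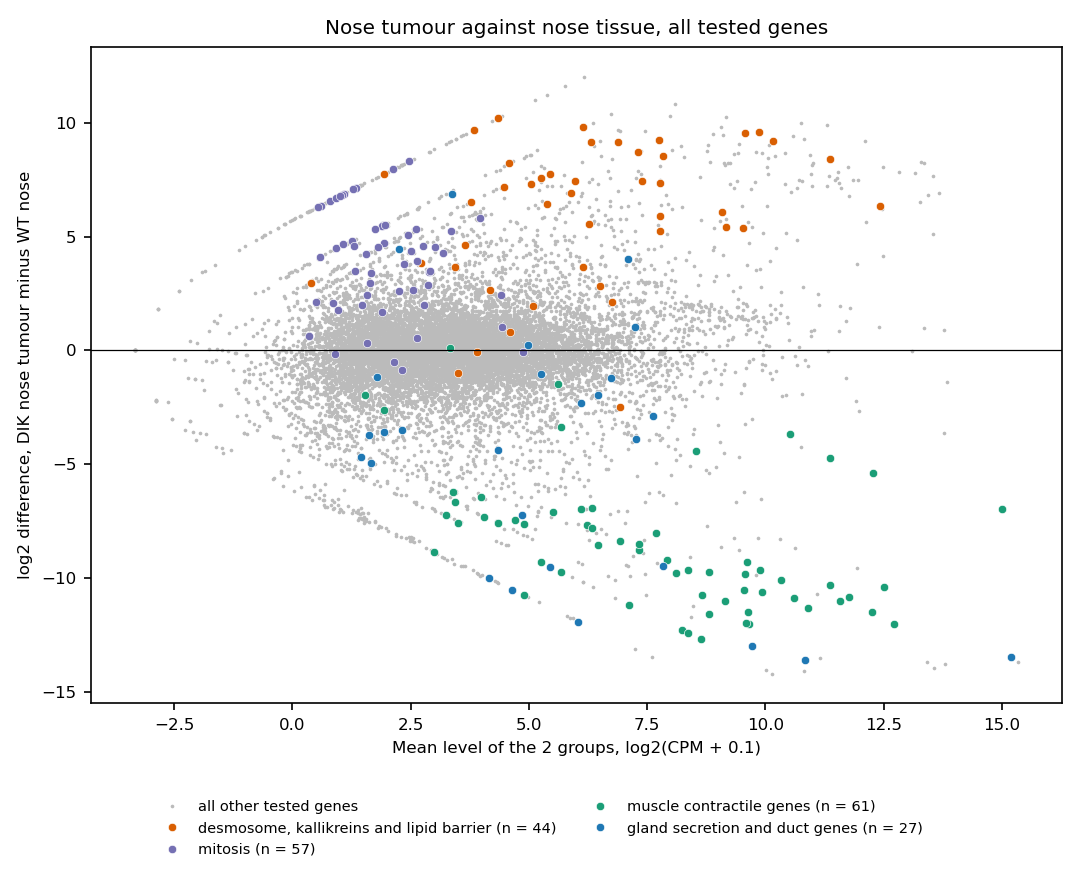
Mean level of each of the 12895 tested genes (horizontal axis, log2 of CPM + 0.1) against its log2 difference, DIK nose tumour minus WT nose (vertical axis), with 4 groups of genes in colour. Most muscle contractile genes and the most abundant gland genes, such as SAL1 at -13.46, lie at the lower right, and most squamous and mitosis genes lie above 0; diagonal rows of points are genes with no or few counts in 1 group, whose fitted difference depends on the prior count.

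Products of glands and genes of muscle fibres were among the 15 largest decreases. The carriers of small hydrophobic molecules, SAL1, the odorant-binding proteins OBP and OBP2B, and the pheromaxein subunits SCGB1D1 and PHEROC, stood at 0 to 13.4 CPM in DIK tumours, against 1163 to 88499.6 CPM in WT nose. SAL1 had 0.486, 5.92 and 13.4 CPM in DIK tumours, against 51076, 88499.6 and 84241 CPM in WT nose (log2 difference -13.46 ± 1.65, or -14.49 without DIK replicate 3, edgeR adjusted p = 1.4e-05). OBP had 0, 0.269 and 0.273 CPM in DIK tumours, against 1892, 5834 and 3035 CPM in WT nose (22564-fold lower, 95% counting interval 6246 to 186330, edgeR adjusted p = 3.3e-08). SCGB1D1 had 0, 2.42 and 3.55 CPM in DIK tumours, against 18319, 36611 and 30503 CPM in WT nose (log2 difference -13.80 ± 2.49, or -14.50 without DIK replicate 3, edgeR adjusted p = 0.0011). No DIK library came near any WT library for these carriers. PHEROC, with 0, 1.08 and 3.82 CPM in DIK tumours, against 12089, 27008 and 26803 CPM in WT nose, and OBP2B, with 0, 0.538 and 0 CPM in DIK tumours, against 1163, 2457 and 1457 CPM in WT nose, showed the same gap. PIP, the prolactin-inducible protein of serous glands, had 0, 0.269 and 0.546 CPM in DIK tumours, against 2353, 4529 and 4037 CPM in WT nose (15697-fold lower, 95% counting interval 5371 to 76119.6, edgeR adjusted p = 0.0015).

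PGLYRP1, a peptidoglycan-binding antibacterial protein, had 0, 0.538 and 0.273 CPM in DIK tumours, against 566, 839 and 725 CPM in WT nose (2889.6-fold lower, 95% counting interval 988 to 14016, edgeR adjusted p = 5.4e-08). Its relative PGLYRP3, which the epidermis makes, ran the other way, with 30.8, 33.7 and 42.3 CPM in DIK tumours, against 1.92, 0.365 and 0.427 CPM in WT nose (log2 difference 6.01 ± 1.13, edgeR adjusted p = 0.00077). Each of these 2 recognition proteins was thus high in the group where the other was near 0.

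Regulators and transporters of serous cells were lower too. Of 27 tested gland and duct genes, 1 rose and 16 fell (median log2 difference -3.73), where 20.1% of all tested genes fell, and ODAM, an odontogenic ameloblast-associated protein, was the 1 that rose. SPDEF, a transcription factor of secretory cells, had 0, 0 and 0.273 CPM in DIK tumours, against 51.8, 117 and 90.2 CPM in WT nose (1115-fold lower, 95% counting interval 199.5 to 44093, edgeR adjusted p = 0.003). BHLHA15 and CREB3L1, regulators of secretory capacity, fell (38.4-fold lower, 95% counting interval 10.1 to 325, and 29.0-fold lower, 95% counting interval 7.51 to 247). SLC26A4, an anion exchanger, and ATP6V1B1, a subunit of the proton pump of acid-secreting duct cells, were at 0 to 0.546 CPM in DIK tumours against 26.5 to 59.9 CPM in WT nose. SLC12A2, the sodium-potassium-chloride cotransporter that loads chloride into secreting cells, had 17.0, 23.7 and 18.02 CPM in DIK tumours, against 242, 352 and 265 CPM in WT nose (log2 difference -3.87 ± 0.49, edgeR adjusted p = 9.7e-06). FOXA1 held 0 counts in DIK tumours against 44.1, 53.3 and 51.5 CPM in WT nose and was not called (edgeR adjusted p = 0.064).

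Chaperones and folding enzymes of the endoplasmic reticulum, on which secretory cells lean, were lower in part. Of 18 tested genes of the unfolded protein response, 0 rose and 9 fell (median -1.13). XBP1, the transcription factor of that response, had 46.1, 44.7 and 50.5 CPM in DIK tumours, against 307, 438 and 299 CPM in WT nose (log2 difference -2.89 ± 0.37, edgeR adjusted p = 9.2e-06). HSPA5, the main chaperone of the compartment, had 84.0, 115 and 77.5 CPM in DIK tumours, against 321, 368 and 238 CPM in WT nose (log2 difference -1.74 ± 0.43, edgeR adjusted p = 0.0035). The disulfide isomerase PDIA4 and the chaperone partner SDF2L1 fell too (log2 differences -2.25 and -2.79). CALR, at 1381, 2816 and 1127 CPM in DIK tumours against 1466, 1438 and 1833 CPM in WT nose, was not called.

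**Figure D2:**
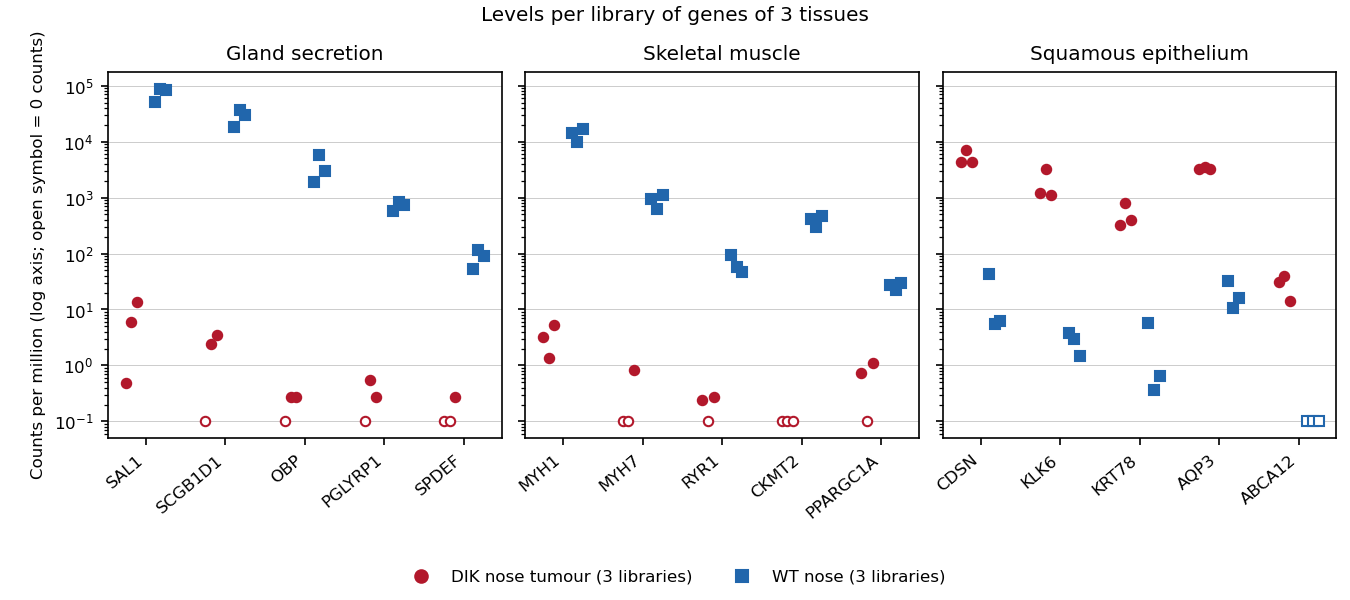
Level of 15 genes in each of the 3 DIK nose tumour and 3 WT nose libraries, in CPM on a log axis, with open symbols for 0 counts. For the gland and muscle genes every WT library lies above every DIK library, and for the squamous genes every DIK library lies above every WT library.

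Skeletal muscle transcripts were all but absent from the DIK libraries, in fast and slow fibre programmes alike. Of 61 tested contractile genes, 0 rose and 60 fell (median log2 difference -9.22, or -8.78 with genes at 0 counts set to their bound). All 13 fast fibre genes and all 12 slow fibre genes fell. MYH1, the myosin of fast fibres, had 3.16, 1.35 and 5.19 CPM in DIK tumours, against 14079, 9709 and 16509.9 CPM in WT nose (log2 difference -12.01 ± 1.005, edgeR adjusted p = 1.1e-07). MYH7, the slow myosin, had 0, 0 and 0.819 CPM in DIK tumours, against 959.6, 629 and 1113 CPM in WT nose (3586-fold lower, 95% counting interval 1227 to 17393, edgeR adjusted p = 5.7e-07). CAPZB, an actin-capping protein of all cells, was the 1 member not called, at 7.53, 12.7 and 12.01 CPM in DIK tumours against 5.76, 14.6 and 7.48 CPM. The skeletal actin ACTA1 kept 683, 4.58 and 887 CPM in DIK tumours, against 46712, 67842 and 81332 CPM in WT nose, so DIK replicate 2 held far less of it than the other 2. ACTA1, ACTC1 and ACTA2 are near-identical actins whose reads the counting could have split.

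The apparatus that couples the nerve signal to contraction fell with the fibres. All 16 tested calcium-release genes fell (median -7.95), among them RYR1, the calcium channel of the sarcoplasmic reticulum, with 0.243, 0 and 0.273 CPM in DIK tumours, against 96.0, 57.7 and 46.6 CPM in WT nose (308-fold lower, 95% counting interval 84.9 to 2555, edgeR adjusted p = 1.8e-07). At the neuromuscular junction the receptor subunits CHRNB1 and CHRNA1 fell, CHRNB1 with a log2 difference of -2.25 and CHRNA1 with one of -7.08, or -5.40 without WT replicate 3. The anchors DOK7 and RAPSN fell too (76.7-fold lower, 95% counting interval 13.2 to 3088, and 24.6-fold lower, 95% counting interval 6.31 to 211). LRP4, the agrin receptor, rose instead, with 34.7, 12.4 and 43.4 CPM in DIK tumours, against 5.76, 6.21 and 5.98 CPM in WT nose (log2 difference 2.32 ± 0.68, edgeR adjusted p = 0.012), as did AGRN, with 10.7, 9.96 and 8.19 CPM in DIK tumours, against 1.92, 5.48 and 3.21 CPM in WT nose (log2 difference 1.29 ± 0.43, edgeR adjusted p = 0.023). NOS1, the nitric oxide synthase of muscle and nerve, had 0 counts in every DIK library against 28.8, 29.2 and 37.6 CPM in WT nose (at least 131-fold lower, edgeR adjusted p = 3.4e-07).

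Muscle regulators followed. Of 10 tested myogenic factors, 0 rose and 7 fell. MYF6, the myogenic factor of mature fibres, had 0.243, 0 and 0.273 CPM in DIK tumours, against 319, 246 and 115 CPM in WT nose (997-fold lower, 95% counting interval 275 to 8239.9, edgeR adjusted p = 2.3e-05). MEF2C fell by 3.54 on the log2 scale, while MEF2A and MEF2D, with -0.06 and -0.77, were not called. PPARGC1A and ESRRG, which drive mitochondrial programmes of oxidative fibres, fell (log2 differences -5.34 and -6.05).

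Several enzymes that exist as muscle and non-muscle forms were split by form. Of 17 energy enzymes listed as muscle isozymes, 0 rose and 15 fell (median -5.56), against 2 rose and 8 fell of 22 listed as other isozymes (median -0.49). These counts do not compare matched forms. The muscle set held LDHB, the heart form of lactate dehydrogenase, and the other set held LDHA, its muscle form. The other set also held enzymes with no counterpart in the muscle set, such as GAPDH and PGK1. PGAM2, the muscle phosphoglycerate mutase, had 2.43, 1.88 and 3.55 CPM in DIK tumours, against 969, 966 and 1244 CPM in WT nose (log2 difference -8.64 ± 0.52, edgeR adjusted p = 1.4e-08). Its counterpart PGAM1 had 167, 275 and 183 CPM in DIK tumours, against 167, 303 and 376 CPM in WT nose (log2 difference -0.44 ± 0.32, edgeR adjusted p = 0.28). ENO3, the muscle enolase, fell (log2 difference -8.30, or -9.01 without DIK replicate 3), while ENO1, at -0.41 ± 0.32, was not called. COX7A1, the heart and muscle subunit of cytochrome oxidase, had 3.64, 2.69 and 3.82 CPM in DIK tumours, against 324, 321 and 394 CPM in WT nose (log2 difference -6.66 ± 0.47, edgeR adjusted p = 2.8e-08). Its broadly expressed form COX7A2 had 166, 249 and 113 CPM in DIK tumours, against 49.9, 84.0 and 86.5 CPM in WT nose (log2 difference 1.24 ± 0.30, edgeR adjusted p = 0.0026). SLC2A4, the insulin-regulated glucose carrier, fell by 7.02. CPT1B, the muscle gate of fat oxidation, fell by 4.65, and the liver form CPT1A fell by 1.18. Creatine kinase was an exception: the brain form CKB had 34.7, 78.9 and 44.8 CPM in DIK tumours, against 1006, 1594 and 1432 CPM in WT nose (log2 difference -4.67 ± 0.56, edgeR adjusted p = 4.7e-06).

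**Figure D3:**
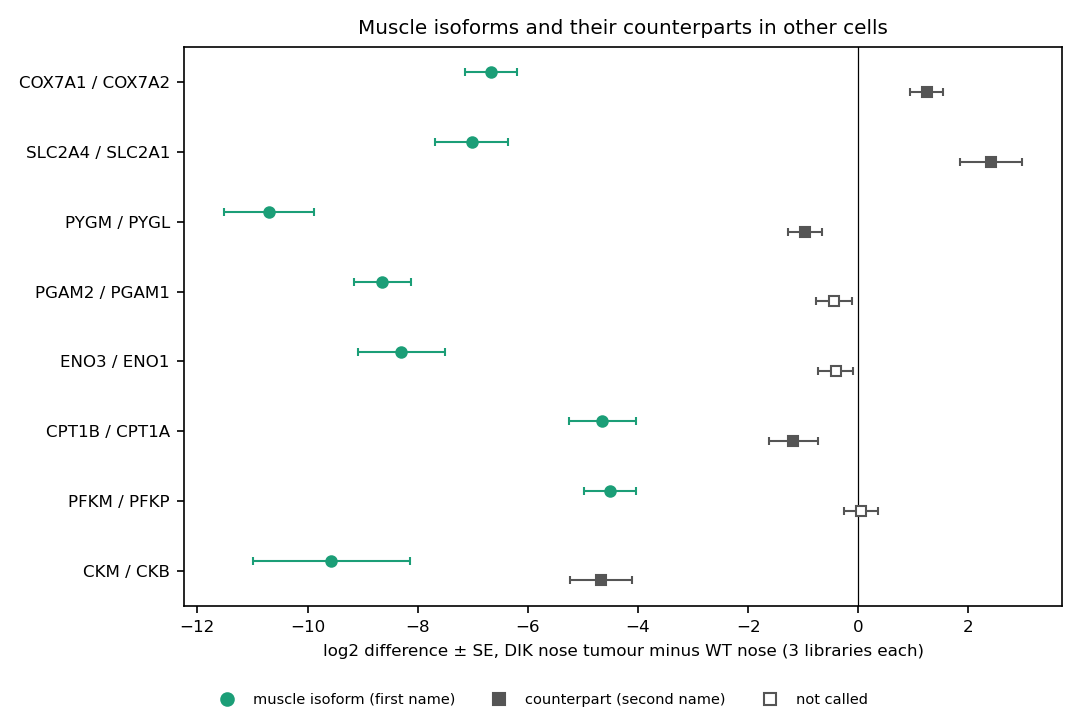
The log2 difference ± approximate SE, DIK nose tumour minus WT nose, of 8 muscle isoforms (circles) and their counterparts (squares), with open symbols for genes that were not called. All 8 muscle isoforms lie between -10.69 for PYGM, the muscle glycogen phosphorylase, and -4.50 for PFKM, the muscle phosphofructokinase, and of the counterparts COX7A2 and SLC2A1 rose.

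Mitochondrial genes had a smaller median difference than fibre genes, and the complexes varied. Of 65 tested nuclear-encoded subunits of the respiratory chain, 2 rose and 33 fell (median -0.86). All 4 subunits of complex II, which joins the citrate cycle to the chain, fell (median -2.82), against 19 of 38 in complex I and 7 of 15 in the ATP synthase. SDHA, the catalytic subunit of complex II, had 27.9, 28.0 and 31.4 CPM in DIK tumours, against 482, 396 and 392 CPM in WT nose (log2 difference -3.86 ± 0.41, edgeR adjusted p = 1.2e-06). In the citrate cycle and its entry, 0 rose and 16 fell of 19, with the isocitrate dehydrogenase IDH2 at -3.28 on the log2 scale, while citrate synthase CS was not called at 105, 135 and 89.6 CPM in DIK tumours against 175, 117 and 170.1 CPM. In fat oxidation 0 rose and 19 fell of 22, and the fatty acid uptake protein CD36 had 2.43, 1.62 and 3.55 CPM in DIK tumours, against 107, 76.3 and 123 CPM in WT nose (log2 difference -5.32 ± 0.60, edgeR adjusted p = 3.4e-06).

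Keratins, the filaments of epithelial cells, changed by class. All 4 tested mucosal keratins rose (median 6.99, or 8.79 without WT replicate 1), 3 of 7 epidermal keratins rose, and 3 of 4 simple epithelial keratins fell (median -5.74). KRT78 had 329.7, 813 and 405 CPM in DIK tumours, against 5.76, 0.365 and 0.641 CPM in WT nose (log2 difference 8.83 ± 1.16, or 9.85 without WT replicate 1, 8.19 without WT replicate 2 and 8.20 without WT replicate 3, edgeR adjusted p = 2.2e-05). KRT6A, the keratin of wounded and fast-growing epithelium, had 19635, 32412 and 19404 CPM in DIK tumours, against 259, 51.8 and 43.6 CPM in WT nose (log2 difference 7.68 ± 1.24, or 8.97 without WT replicate 1, edgeR adjusted p = 0.00014). KRT18, a keratin of glands and ducts, had 0 counts in DIK tumours against 127, 137 and 69.0 CPM in WT nose (at least 369-fold lower, edgeR adjusted p = 0.00092). Its partner KRT8 had 21.8, 2.42 and 35.2 CPM in DIK tumours, against 1221, 1859 and 1371 CPM in WT nose (log2 difference -6.22 ± 1.43, or -6.91 without DIK replicate 3, edgeR adjusted p = 0.0036). Mucosal and simple keratins thus ran in opposite directions. KRT15 of the basal layer, at 1007, 26.1 and 1729 CPM in DIK tumours against 49.9, 9.86 and 58.6 CPM in WT nose, was not called (edgeR adjusted p = 0.097), and DIK replicate 2 lay within the WT range. Keratin genes share long stretches of sequence, so their reads could have been split among copies.

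Genes of cell-to-cell anchorage rose nearly throughout, and genes of anchorage to the base did not. Of 14 desmosome genes, 12 rose and 0 fell (median 6.002). Of 10 hemidesmosome and laminin-332 genes, 3 rose and 0 fell (median 1.56, or 0.89 without DIK replicate 2). That share of 30.0% is not far from the 21.9% of all tested genes that rose, and the integrin ITGA6 lost its call without DIK replicate 2. CDSN, the corneodesmosin of the outer layers, had 4322, 7070.2 and 4373 CPM in DIK tumours, against 42.2, 5.48 and 6.20 CPM in WT nose (log2 difference 8.40 ± 2.05, or 9.81 without WT replicate 1, edgeR adjusted p = 0.0052). PKP1, a plaque protein of suprabasal desmosomes, had 371, 613 and 369.7 CPM in DIK tumours, against 5.76, 0.365 and 0.855 CPM in WT nose (log2 difference 8.53 ± 1.72, or 9.37 without WT replicate 1 and 7.91 without WT replicate 2, edgeR adjusted p = 0.0016). The 2 desmosome genes not called were DSG2, the desmoglein of simple epithelium, with 34.2, 32.0 and 43.7 CPM in DIK tumours, against 169, 174 and 274 CPM in WT nose (log2 difference -2.49 ± 1.08, edgeR adjusted p = 0.079), and the plakophilin PKP2, with 4.86, 13.5 and 4.37 CPM in DIK tumours, against 15.4, 13.1 and 16.2 CPM in WT nose. The integrin ITGB4 and the linkers DST and PLEC were not called, with log2 differences of 0.96, -0.05 and 0.09.

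Claudins, the seals of tight junctions, changed in both directions. CLDN1, the epidermal claudin, had 293, 310.4 and 284 CPM in DIK tumours, against 5.76, 8.76 and 7.69 CPM in WT nose (log2 difference 5.25 ± 1.01, edgeR adjusted p = 0.00093), CLDN17 rose (60.8-fold higher, 95% counting interval 10.6 to 2427), and CLDN23 rose by 3.57, or 2.98 without DIK replicate 3. CLDN3, a claudin of glands, had 0.728, 1.35 and 1.37 CPM in DIK tumours, against 61.4, 118 and 69.2 CPM in WT nose (log2 difference -6.17 ± 1.34, edgeR adjusted p = 0.0025), and CLDN7 and CLDN8 fell with it (log2 difference -4.82 for CLDN7, and at least 42.0-fold lower for CLDN8). The occludin OCLN was not called, at 18.9, 21.3 and 23.2 CPM in DIK tumours against 21.1, 18.3 and 24.8 CPM.

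Shedding enzymes and their brakes rose together. All 10 tested kallikreins rose (median 9.23), and of 5 inhibitors 4 rose and 0 fell. KLK6 had 1231, 3219 and 1131 CPM in DIK tumours, against 3.84, 2.92 and 1.496 CPM in WT nose (log2 difference 9.58 ± 1.23, or 8.94 without DIK replicate 2, edgeR adjusted p = 2.3e-05). KLK12 had 38.6, 42.8 and 39.9 CPM in DIK tumours, against 0, 0 and 0 CPM in WT nose (at least 107-fold higher, edgeR adjusted p = 1.3e-06). SPINK7, a protease inhibitor of squamous mucosa, had 2543, 4695 and 1955 CPM in DIK tumours, against 15.4, 3.29 and 0.855 CPM in WT nose (log2 difference 9.42 ± 2.19, or 10.60 without WT replicate 1 and 8.62 without WT replicate 3, edgeR adjusted p = 0.0039), and CSTB, a cathepsin inhibitor, rose by 5.47 on the log2 scale. CST6 was not called, at 203, 78.1 and 296 CPM in DIK tumours against 92.1, 189.9 and 100.01 CPM in WT nose. Among the clade B serpins, intracellular protease inhibitors, 6 rose and 0 fell of 9, and SERPINB11 had 168, 129.8 and 112 CPM in DIK tumours, against 3.84, 0.73 and 0.855 CPM in WT nose (log2 difference 6.94 ± 0.64, edgeR adjusted p = 3.4e-07). A2ML1, the protease trap of keratinocytes, rose by 8.47, or 9.71 without WT replicate 1 and 7.76 without WT replicate 3, while A2M, its blood-borne relative, fell (10.9-fold lower, 95% counting interval 2.53 to 97.9, edgeR adjusted p = 0.048).

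Of 20 tested genes of the lipid barrier, 17 rose and 0 fell (median 5.09). ABCA12, the lipid pump of lamellar granules, had 30.8, 40.4 and 14.2 CPM in DIK tumours and 0 counts in WT nose (at least 75.7-fold higher, edgeR adjusted p = 0.0024). CERS3 and ELOVL4, which build ceramides with very long chains, had 42.5, 64.1 and 36.3 CPM and 92.5, 78.4 and 91.2 CPM in DIK tumours, against at most 0.641 CPM in WT nose. GSDMA, the gasdermin of skin, and CLIC3, an intracellular chloride channel protein, were among the 15 largest increases, with 131, 179 and 126 CPM and 24.3, 33.1 and 28.9 CPM in DIK tumours against 0, 0 and 0.214 CPM and 0 in WT nose. SMPD1, the acid sphingomyelinase, was not called (-0.07 ± 0.33). Of the 20 tested genes, called or not, 19 had no overlap between the DIK and WT libraries, against 54.3% of all tested genes.

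Of 32 transcription factors of squamous tissue, 20 rose and 1 fell (median 3.33, or 2.92 with bounds). GRHL3 and KLF4, factors of barrier formation, had 60.9, 78.9 and 54.1 CPM and 189.8, 157 and 135 CPM in DIK tumours against 1.92, 0 and 0 CPM and 5.76, 3.29 and 2.56 CPM in WT nose. GRHL3 was 512-fold higher, 95% counting interval 91.7 to 20268, and KLF4 rose by 5.61. FOXN1, a factor of skin and thymus epithelium, rose (101-fold higher, 95% counting interval 17.8 to 4009.7). BHLHE41, a repressor in the clock, was the 1 that fell, with 2.18, 7.27 and 3.003 CPM in DIK tumours, against 23.0, 17.2 and 21.8 CPM in WT nose (log2 difference -2.29 ± 0.51, or -2.95 without DIK replicate 2, edgeR adjusted p = 0.0016). TFAP2C, EHF and ELF5, which both squamous and gland epithelium use, were not called, with log2 differences of 1.60, 0.26 and -1.96.

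**Figure D4:**
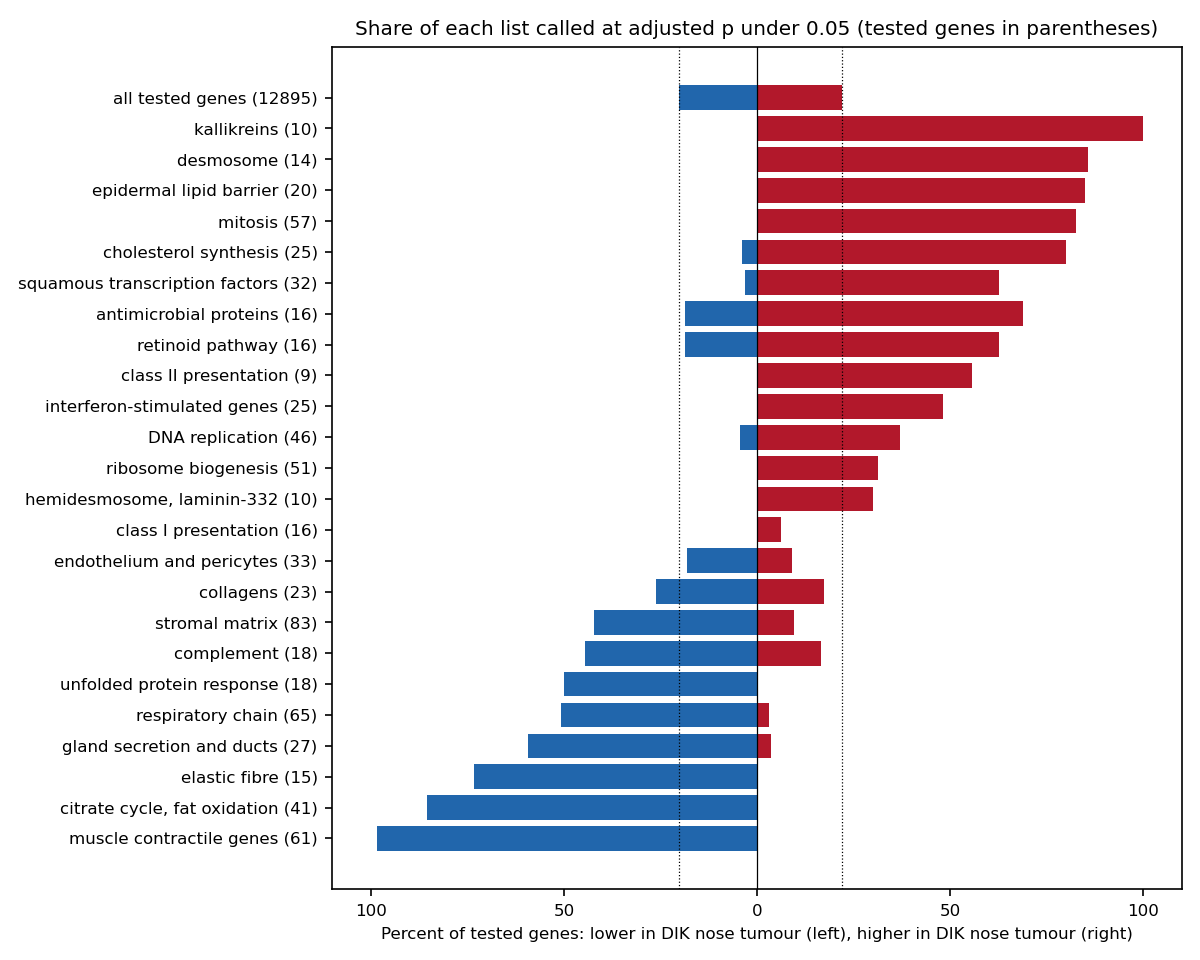
Percent of the tested genes of each list called lower (bars to the left) or higher (bars to the right) in DIK nose tumour than in WT nose at an adjusted p under 0.05. Dotted lines mark the shares over all 12895 tested genes, 20.1% lower and 21.9% higher; contractile genes reach furthest to the left and kallikreins, with 10 of 10, furthest to the right.

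Cholesterol synthesis and uptake rose as a block. Of 25 tested genes, 20 rose and 1 fell (median 2.51), while of 12 fatty acid genes 2 rose and 2 fell. FDPS, which makes farnesyl diphosphate, had 907, 1036 and 788 CPM in DIK tumours, against 34.5, 47.8 and 42.5 CPM in WT nose (log2 difference 4.44 ± 0.52, edgeR adjusted p = 3.8e-06). HMGCS1, at the entry of the pathway, rose by 3.80, and SREBF2, the factor that governs it, by 1.92. INSIG1, which holds that factor back, was the 1 that fell, with 13.4, 21.5 and 14.7 CPM in DIK tumours, against 38.4, 36.9 and 32.5 CPM in WT nose (log2 difference -1.10 ± 0.31, edgeR adjusted p = 0.0087). Between the 2 stearoyl desaturases, SCD had 45.9, 48.5 and 35.5 CPM in DIK tumours, against 0, 2.19 and 0.427 CPM in WT nose (log2 difference 5.33 ± 1.54, or 4.62 without WT replicate 3, edgeR adjusted p = 0.013) and SCD5 had 0, 0.808 and 0.546 CPM in DIK tumours, against 17.3, 18.3 and 12.2 CPM in WT nose (log2 difference -5.05 ± 0.77, edgeR adjusted p = 5.3e-05).

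Retinoid genes changed in both directions: of 16 tested genes, 10 rose and 3 fell. CRABP2, the carrier that brings retinoic acid to its receptor, had 247, 307 and 296 CPM in DIK tumours, against 0, 3.29 and 1.71 CPM in WT nose (log2 difference 7.04 ± 0.63, edgeR adjusted p = 2.2e-07), and the receptor RARG rose by 2.86. ALDH1A2, an enzyme that makes retinoic acid, had 0.243, 0 and 0 CPM in DIK tumours, against 46.1, 55.1 and 34.8 CPM in WT nose (489-fold lower, 95% counting interval 87.2 to 19387, edgeR adjusted p = 8.0e-06), and DHRS3, which returns retinal to retinol, fell by 2.72. RDH12 and SDR16C5, which act on retinol and retinal, rose. RDH12 did so by 5.53, or 6.14 without WT replicate 3, and SDR16C5 by 7.22, or 6.01 without WT replicate 3. CYP24A1, the enzyme that breaks down active vitamin D, was among the 10 increases with the smallest adjusted p, with 84.7, 41.5 and 102 CPM in DIK tumours, against 1.92, 0.73 and 0.641 CPM in WT nose (log2 difference 6.55 ± 0.61, edgeR adjusted p = 3.4e-07).

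In the Notch pathway, which drives cells out of the basal layer, 7 rose and 1 fell of 16. NOTCH1 had 20.6, 23.7 and 33.3 CPM in DIK tumours, against 5.76, 6.57 and 5.13 CPM in WT nose (log2 difference 2.15 ± 0.52, edgeR adjusted p = 0.003), NOTCH3 rose by 2.41, its ligand JAG1 by 2.04 and the target NRARP by 3.11. The glycosyltransferase LFNG fell by 2.17. HES1 and HEY1, 2 targets, were not called (1.08 and 0.89). Among BMP targets ID1 had 174, 352 and 144 CPM in DIK tumours, against 7.68, 9.13 and 12.6 CPM in WT nose (log2 difference 4.44 ± 0.40, edgeR adjusted p = 1.9e-07), ID3 rose by 1.51, ID4 fell by 2.63 and ID2 was not called (-0.43). The ID genes shared no direction. Of 23 secreted growth factors, 4 rose and 11 fell, and of 26 receptors 12 rose and 6 fell. FGFR3 and FGFR2, receptors of epithelium, rose by 4.20 and 2.40, whereas FGFR1, carried by mesenchyme and muscle, had 0.971, 1.62 and 1.64 CPM in DIK tumours, against 13.4, 13.9 and 13.9 CPM in WT nose (log2 difference -3.27 ± 0.55, edgeR adjusted p = 0.00015). FGF7, which fibroblasts make for epithelium, had 5.58, 0 and 4.37 CPM in DIK tumours, against 23.0, 16.8 and 19.0 CPM in WT nose (log2 difference -2.50 ± 0.78, or -3.14 without DIK replicate 1, edgeR adjusted p = 0.021), with DIK replicate 2 at 0.

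Of the 25 tested genes of ion and acid transport and gap junctions, 13 rose and 7 fell (median 1.68). Of 5 tested aquaporins, counted apart, 1 rose and 1 fell (median -0.90), and AQP3 was the 1 that rose. AQP3, the water and glycerol channel of keratinocytes, had 3252, 3489.7 and 3249 CPM in DIK tumours, against 32.6, 10.6 and 15.8 CPM in WT nose (log2 difference 7.49 ± 1.43, edgeR adjusted p = 0.00092). Among connexins of gap junctions GJB5 rose (398-fold higher, 95% counting interval 71.1 to 15739.7), and GJA1 rose by 3.96. The sodium pump subunit ATP1B1 had 3.16, 8.35 and 1.64 CPM in DIK tumours, against 76.8, 127 and 79.7 CPM in WT nose (log2 difference -4.44 ± 0.53, or -5.27 without DIK replicate 2, edgeR adjusted p = 5.5e-06). CA4, a membrane carbonic anhydrase, had 97.6, 146 and 78.4 CPM in DIK tumours, against 0, 0 and 0.855 CPM in WT nose (log2 difference 7.72 ± 1.05, or 7.13 without WT replicate 2, edgeR adjusted p = 4.2e-05), and the muscle form CA3 fell (409-fold lower, 95% counting interval 113 to 3386).

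Of 11 genes of steroid response, 2 rose and 6 fell. ZBTB16 had 2.91, 1.62 and 1.91 CPM in DIK tumours, against 86.4, 56.2 and 51.5 CPM in WT nose (log2 difference -4.85 ± 0.46, edgeR adjusted p = 4.1e-07), FKBP5 and TSC22D3 fell (log2 differences -2.74 and -2.50), and KLF15 fell (59.4-fold lower, 95% counting interval 19.8 to 292). SGK1, a kinase that also answers to salt and to growth factors, rose instead, with 257, 228 and 241 CPM in DIK tumours, against 32.6, 21.5 and 36.8 CPM in WT nose (log2 difference 3.000 ± 0.35, edgeR adjusted p = 3.6e-06). Muscle uses some of these genes, and the part of muscle content in their fall was not tested.

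Genes of mitosis rose nearly throughout, and genes of DNA replication in part. Of 57 tested genes of mitosis, 47 rose and 0 fell (median 4.26, or 3.47 with bounds). Of 46 genes of replication, 17 rose and 2 fell (median 0.85). CDK1, the kinase that starts mitosis, had 10.2, 15.1 and 10.1 CPM in DIK tumours, against 0, 0.73 and 0 CPM in WT nose (46.6-fold higher, 95% counting interval 12.7 to 389, edgeR adjusted p = 1.6e-05). CENPF, a kinetochore protein, had 10.4, 13.5 and 8.74 CPM in DIK tumours and 0 counts in WT nose (at least 28.8-fold higher, edgeR adjusted p = 8.1e-05). Among replication genes RRM2 and TYMS, which supply nucleotides, rose by 5.41 and 5.21. MCM7, FEN1 and LIG1 were not called (0.56, -0.17 and -0.45) and RPA1 and POLD2 fell (log2 differences -1.31 and -1.46). CDC25A and WEE1, which act at entry to mitosis, were not called (-0.53 and -0.87). Many of these genes lay low, and in WT replicate 1 a count of 0 allows up to 5.76 CPM. Of 51 genes of ribosome biogenesis, 16 rose and 0 fell (median 0.54), with MYC at 42.7, 33.1 and 70.4 CPM in DIK tumours against 28.8, 20.4 and 7.69 CPM in WT nose (log2 difference 1.51 ± 0.52, edgeR adjusted p = 0.026).

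Antigen presentation rose mostly in class II, which displays antigens taken up from outside. Of 9 class II genes, 5 rose and 0 fell (median 1.47), and of 16 class I genes, 1 rose and 0 fell (median 0.09). SLA-DQA1 had 730.5, 278 and 546 CPM in DIK tumours, against 78.7, 131 and 169.7 CPM in WT nose (log2 difference 2.02 ± 0.40, edgeR adjusted p = 0.0006). TAP1, a subunit of the peptide carrier, was the class I gene that rose, by 0.76, and the classical genes SLA-1, SLA-2 and SLA-3 lay at -0.49, -0.28 and -0.61 and were not called. Class I genes are near-identical copies, so their reads could have been split. CIITA, the master regulator of class II, was not called (-0.13 ± 0.47). DIK replicate 2 held the least of every called class II gene, and CD74 was called once it was left out (1.03, edgeR adjusted p = 0.035).

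JCHAIN, the joining chain of secreted antibody, had 379.9, 34.7 and 306 CPM in DIK tumours, against 3.84, 8.76 and 4.92 CPM in WT nose (log2 difference 5.26 ± 0.89, edgeR adjusted p = 0.00035), with DIK replicate 2 far below the other 2. Of 16 macrophage genes, 4 rose (25.0%) and 0 fell, near the 21.9% of all tested genes that rose. C1QA, C1QB and C1QC were not called (0.40, -0.25 and -0.17), nor were the macrophage markers CD163 and CSF1R (-0.27 and -0.77). GPNMB, a glycoprotein of macrophages and melanocytes, was one that rose, with 205, 47.4 and 166 CPM in DIK tumours, against 17.3, 8.40 and 5.56 CPM in WT nose (log2 difference 3.97 ± 0.88, edgeR adjusted p = 0.0025). Of 6 tested melanocyte genes, 2 rose and 2 fell (median 0.36). PMEL, a melanosome protein, was one that rose, with 70.16, 10.5 and 121 CPM in DIK tumours, against 1.92, 1.83 and 3.42 CPM in WT nose (log2 difference 4.65 ± 1.22, or 3.93 without DIK replicate 3, edgeR adjusted p = 0.008), while the melanocyte markers TYR and MLANA reached at most 2.19 CPM in any library.

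Interferon-stimulated genes rose in part. Of 25 tested, 12 rose and 0 fell (median 1.28). The summed level of the 31 listed genes that were counted, tested or not, was 1568, 2684 and 1493 CPM in DIK tumours against 267, 253 and 349 CPM in WT nose. ISG15, a ubiquitin-like protein, made up most of the DIK sum, with 827, 1762 and 776 CPM in DIK tumours, against 19.2, 16.8 and 24.6 CPM in WT nose (log2 difference 5.78 ± 0.55, edgeR adjusted p = 4.2e-07). MX1, a barrier to viruses, had 27.7, 35.0 and 27.6 CPM in DIK tumours, against 5.76, 3.29 and 4.06 CPM in WT nose (log2 difference 2.91 ± 0.46, edgeR adjusted p = 7.2e-05). EIF2AK2, the kinase that senses double-stranded RNA, had 202, 215 and 193 CPM in DIK tumours, against 38.4, 40.2 and 74.6 CPM in WT nose (log2 difference 1.97 ± 0.36, edgeR adjusted p = 0.0003). IFIT1, IFIT3, RSAD2 and CMPK2 were not called, with log2 differences between -0.63 and 0.96. IFNE, the interferon that epithelium makes without infection, had 21.4, 18.6 and 16.4 CPM in DIK tumours, against 0, 1.10 and 1.71 CPM in WT nose (log2 difference 3.79 ± 0.79, edgeR adjusted p = 0.0012).

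All 3 tested interleukin-1 ligands rose. IL1A was 152-fold higher, 95% counting interval 41.7 to 1256, IL18 rose by 3.34 on the log2 scale, or 2.05 without DIK replicate 2, and IL33 rose by 1.58. Their median was 3.34, or 2.05 without DIK replicate 2. The sum over 5 listed ligands and inhibitors, 2 of them below the filter, was 166 CPM in DIK replicate 2. It was 53.7 and 46.4 CPM in the other DIK libraries and 9.60 to 16.5 CPM in WT nose. IL1RL2, the receptor for interleukin-36, had 204, 113 and 136 CPM in DIK tumours, against 7.68, 0.73 and 1.496 CPM in WT nose (log2 difference 6.31 ± 1.63, or 6.97 without WT replicate 1, edgeR adjusted p = 0.0072). The decoy receptor IL1R2 had 17.96, 90.2 and 17.5 CPM in DIK tumours, against 0, 0.73 and 0 CPM in WT nose (163-fold higher, 95% counting interval 45.0 to 1353, edgeR adjusted p = 0.011) and was highest in DIK replicate 2. Of 16 antimicrobial genes, 11 rose and 3 fell (median 3.99), with DEFB1, a defensin of epithelium, at 20.4, 99.6 and 19.1 CPM in DIK tumours against 0, 0 and 0.214 CPM in WT nose (362-fold higher, 95% counting interval 64.7 to 14321, edgeR adjusted p = 7.0e-06). Among chemokines CXCL14 rose, with 216, 408 and 239 CPM in DIK tumours, against 19.2, 20.1 and 16.0 CPM in WT nose (log2 difference 3.97 ± 0.77, edgeR adjusted p = 0.00078), and CXCL12, which stroma makes, fell by 3.26. Of 18 complement genes, 3 rose and 8 fell: C2, C4A, C1S and the adipocyte and fibroblast factor CFD fell (log2 differences -3.93, -2.67, -2.72 and -2.57), and DIK replicate 2 was the lowest of the 3 DIK libraries for each.

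Stromal genes fell more often than they rose. Of 83 matrix and fibroblast genes, 8 rose and 35 fell (median -0.79), and of 15 elastic fibre genes 0 rose and 11 fell (median -2.10). MFAP5, a microfibril protein, had 0.971, 0.269 and 0.546 CPM in DIK tumours, against 107, 176 and 162 CPM in WT nose (log2 difference -7.87 ± 0.73, edgeR adjusted p = 3.8e-07). LTBP4, which ties latent TGF-beta to those fibres, had 8.98, 9.15 and 12.01 CPM in DIK tumours, against 57.6, 91.3 and 89.3 CPM in WT nose (log2 difference -2.996 ± 0.43, edgeR adjusted p = 2.9e-05). Among fibroblast markers PI16 and SCARA5 fell (log2 differences -4.07 and -4.43), and LUM, at 197, 65.2 and 229 CPM in DIK tumours against 154, 233 and 113 CPM in WT nose, was not called. Of the 8 that rose, TNC and THBS2 did so by 2.59 and 1.20, and WISP1 rose too (20.03-fold higher, 95% counting interval 5.30 to 169). Fibrillar collagen fell in 3 of 8 genes, with COL1A2 at 689, 235 and 659 CPM in DIK tumours against 1902, 2349 and 2000.4 CPM in WT nose (log2 difference -1.98 ± 0.54, edgeR adjusted p = 0.007). Of 6 basement membrane collagens 3 rose and 0 fell, COL18A1 with 21.1, 62.5 and 31.9 CPM in DIK tumours, against 17.3, 7.67 and 12.4 CPM in WT nose (log2 difference 1.73 ± 0.44, edgeR adjusted p = 0.0039). Of 33 endothelial and pericyte genes 3 rose and 6 fell, a share under that of all genes, and the adhesion molecule SELE had 11.7, 12.4 and 7.10 CPM in DIK tumours, against 0, 0.73 and 0.855 CPM in WT nose (log2 difference 3.76 ± 0.62, edgeR adjusted p = 0.00012).

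DIK replicate 2 differed from the other 2 DIK libraries in a set of named genes. CXCL8, the main attractant of neutrophils, had 6.07, 101 and 3.55 CPM in DIK tumours and 0 counts in WT nose (at least 94.8-fold higher, edgeR adjusted p = 0.01). PLET1, a surface protein of epithelial progenitors in mice and the largest increase among the named genes without overlap, had 36.7, 361 and 32.2 CPM in DIK tumours and 0 counts in WT nose (at least 370.2-fold higher, edgeR adjusted p = 0.0034). ARG1, the arginase, had 525, 2376 and 411 CPM in DIK tumours, against 3.84, 1.10 and 1.28 CPM in WT nose (log2 difference 9.46 ± 0.91, or 8.23 without DIK replicate 2, edgeR adjusted p = 4.3e-07). In all 3 genes replicate 2 was the highest, and the other 2 DIK libraries also lay above every WT library or held counts where WT held none. ODC1, the first enzyme of polyamine synthesis, had 1.21, 23.4 and 0.546 CPM in DIK tumours, against 5.76, 7.67 and 5.34 CPM in WT nose and was not called (0.40 ± 0.92), and without DIK replicate 2 its log2 difference was -2.77 (edgeR adjusted p = 0.0016). CXCL2, a neutrophil attractant, ITGA6, an integrin of the basal layer, and COL1A1 lost their calls without it, with log2 differences of 1.14, 0.98 and -1.15 against 3.28, 2.02 and -1.47 with it (edgeR adjusted p = 0.39, 0.12 and 0.088 without it). CXCL2 also lost its call without any 1 of the WT libraries (edgeR adjusted p = 0.059, 0.15 and 0.091), and COL1A1 without WT replicate 2 (edgeR adjusted p = 0.065). What set this library apart was not tested.

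Some calls on named genes hung on a single library. A2M, CLDN8 and CLDN23 lost theirs without WT replicate 1 (edgeR adjusted p = 0.068, 0.059 and 0.075) and without several other libraries. AGRN lost its call without WT replicate 1, WT replicate 3 or DIK replicate 1 (edgeR adjusted p = 0.051, 0.13 and 0.063). CPT1A lost its call without any library but WT replicate 1 or DIK replicate 3, with an edgeR adjusted p of up to 0.16. MYC lost its call without WT replicate 2, WT replicate 3 or DIK replicate 3 (edgeR adjusted p = 0.052, 0.14 and 0.11), and TAP1 without any of these or DIK replicate 1, with an edgeR adjusted p of up to 0.19. FGFR3 and RDH12 lost theirs without WT replicate 2 (edgeR adjusted p = 0.061 and 0.064) and WT replicate 3 (0.087 and 0.053). Without WT replicate 3 the edgeR adjusted p also passed 0.05 for FGF7, FGFR2, IL1R2, KRT5, LRP4 and SCD, with values from 0.052 to 0.079. For CA4, CLDN23, CXCL2, ESRRG, NRARP, PPARGC1A, RRM2, SCD, SCD5, SDR16C5 and TYMS, 1 library also changed the fitted fold by over 1.5 times and left 3 counts or fewer in its group. No value is given for these, since it depends on the prior count. ITGB4 gained a call without DIK replicate 1 or WT replicate 2 (edgeR adjusted p = 0.037 and 0.047).

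The nose difference was then set against the mean of the differences at the sites labelled mouth and scrotum, in the same fit. HOXA10, a gene of posterior body regions, averaged 3.39 ± 1.57 CPM (DIK) and 21.9 ± 6.23 CPM (WT) in the mouth-labelled libraries and 0 ± 0 CPM (DIK) and 0.14 ± 0.242 CPM (WT) in the scrotum-labelled libraries (SD, n = 3 each), which goes against those labels, and the mean of the 2 sites is the same whichever label is right. In all 819 genes (6.35%) differed at an adjusted p under 0.05, 479 (3.71%) with a higher and 340 (2.64%) with a lower difference at the nose. Single libraries moved this count: without DIK replicate 1 it was 180 higher and 153 lower, without DIK replicate 3 it was 294 and 210, without WT replicate 1 it was 270 and 245, without WT replicate 2 it was 190 and 174, and without WT replicate 3 it was 215 and 203. WT tissue labelled scrotum carried skeletal muscle too, with MYH1 at 4.56 ± 3.64 CPM (DIK) and 32872 ± 19928 CPM (WT) in the scrotum-labelled libraries (SD, n = 3 each), so muscle transcripts were lower in DIK there as well.

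Interferon-stimulated genes stood higher in the nose difference. Of 25 tested, 15 had a higher difference at the nose and 0 a lower one, where 3.71% of all tested genes were higher, and over the alternatives tried the first number lay between 10 and 19, or 11 of 13 with the strictest filter. USP18, which ends interferon signalling, averaged 1.82 ± 1.18 CPM (DIK) and 3.65 ± 1.97 CPM (WT) in the mouth-labelled libraries and 1.53 ± 0.867 CPM (DIK) and 2.72 ± 1.82 CPM (WT) in the scrotum-labelled libraries (SD, n = 3 each), while it rose at the nose by 3.09. The difference of its differences was 3.99 ± 0.81 (edgeR adjusted p = 0.0076). For MX1 it was 3.66 ± 0.55 (edgeR adjusted p = 0.00081).

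Genes of the unfolded protein response stood lower in the nose difference, 13 of 18 with 0 higher, where 2.64% of all tested genes were lower, and 10 to 14 over the alternatives tried. HSPA5 averaged 661 ± 389 CPM (DIK) and 106 ± 28.2 CPM (WT) in the mouth-labelled libraries and 309 ± 58.7 CPM (DIK) and 43.2 ± 22.9 CPM (WT) in the scrotum-labelled libraries (SD, n = 3 each), higher in DIK at both, while at the nose it was lower in DIK. The difference of its differences was -4.48 ± 0.54 (edgeR adjusted p = 9.6e-05). The levels of gland products in WT tissue at the other sites varied by gene and by library. In the mouth-labelled WT libraries the SD exceeded the mean for both SAL1 and PIP. SAL1 averaged 6.60 ± 6.47 CPM (DIK) and 74605 ± 20488 CPM (WT) at the nose, 0.283 ± 0.268 CPM (DIK) and 441 ± 630.3 CPM (WT) in the mouth-labelled libraries and 0.331 ± 0.36 CPM (DIK) and 96.9 ± 58.2 CPM (WT) in the scrotum-labelled libraries. PIP averaged 0.272 ± 0.273 CPM (DIK) and 3639.7 ± 1141 CPM (WT) at the nose, 0.081 ± 0.14 CPM (DIK) and 2025 ± 3447 CPM (WT) in the mouth-labelled libraries and 0 ± 0 CPM (DIK) and 4.16 ± 1.23 CPM (WT) in the scrotum-labelled libraries (SD, n = 3 each). The part of gland content in this result was not tested.

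**Figure D5:**
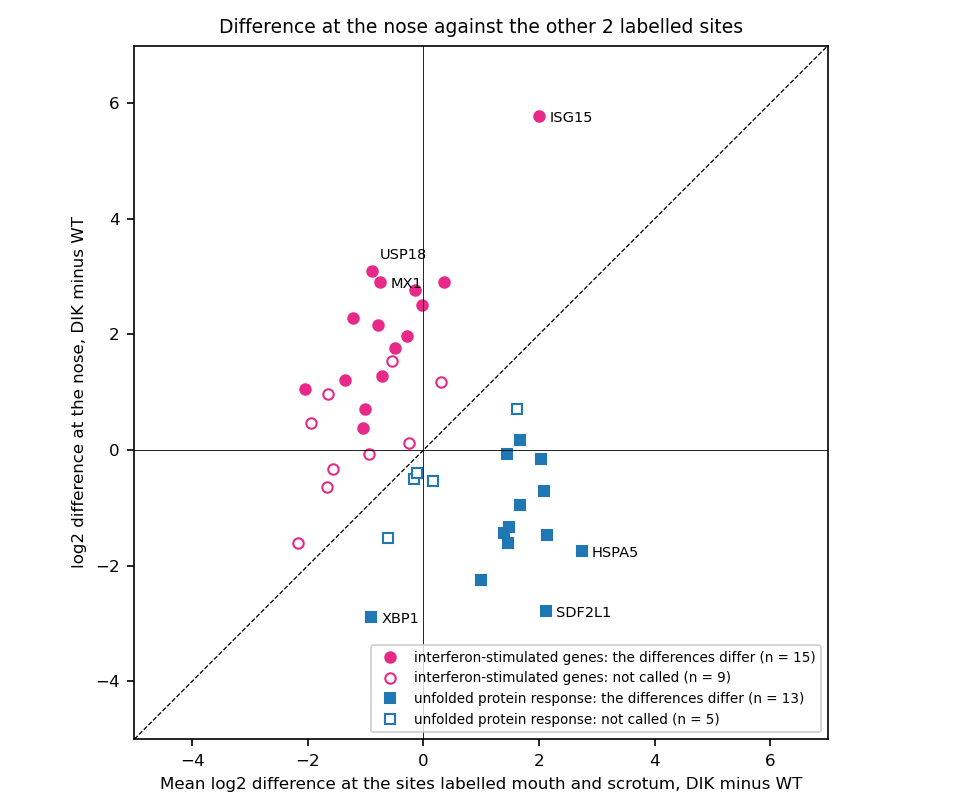
The log2 difference DIK minus WT at the nose (vertical axis) against the mean of the same differences at the sites labelled mouth and scrotum (horizontal axis) for 24 interferon-stimulated genes (circles) and 18 genes of the unfolded protein response (squares), with filled symbols where the differences differ at an adjusted p under 0.05 and the dashed line where they are equal. The 15 filled circles lie above the line and the 13 filled squares below it; OASL, with 0 counts in several groups, is left out.

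Among the other genes that differed from those sites were genes of stroma, of glands and of the cornified layer. Of 83 tested matrix and fibroblast genes, 18 had a higher difference at the nose and 1 a lower one. Over all tested genes the shares were 3.71% and 2.64%. The number of matrix genes with a higher difference lay between 7 and 32 over the alternatives tried. KCNN4, a calcium-gated potassium channel that drives gland secretion, had 0.486, 4.58 and 0.546 CPM in DIK tumours, against 30.7, 58.8 and 26.3 CPM in WT nose (log2 difference -4.38 ± 0.61, or -6.15 without DIK replicate 2, edgeR adjusted p = 2.4e-05), but averaged 4.30 ± 0.84 CPM (DIK) and 0.282 ± 0.264 CPM (WT) in the mouth-labelled libraries and 16.3 ± 5.56 CPM (DIK) and 0.208 ± 0.21 CPM (WT) in the scrotum-labelled libraries, higher in DIK at both. The difference of its differences was -9.35 ± 0.86 (edgeR adjusted p = 5.0e-06). RPTN, the repetin of the cornified envelope, had 22663, 21925 and 17971 CPM in DIK tumours, against 177, 17.9 and 20.1 CPM in WT nose (log2 difference 8.25 ± 1.78, or 10.10 without WT replicate 1, edgeR adjusted p = 0.0022), and averaged 30.8 ± 14.6 CPM (DIK) and 2.62 ± 0.528 CPM (WT) in the mouth-labelled libraries and 23.3 ± 8.43 CPM (DIK) and 131 ± 221 CPM (WT) in the scrotum-labelled libraries. The difference of its differences was 7.72 ± 1.88 (edgeR adjusted p = 0.028). MT4, a metallothionein of squamous cells, had 173, 5.65 and 143 CPM in DIK tumours, against 5.76, 0.73 and 0.855 CPM in WT nose (log2 difference 6.35 ± 1.98, or 7.01 without WT replicate 1, edgeR adjusted p = 0.02), so DIK replicate 2 lay within the WT range. MT4 averaged 1.93 CPM (DIK) and 0.481 CPM (WT) in the mouth-labelled libraries. In the scrotum-labelled libraries it averaged 0.119 CPM (DIK) and 230 CPM (WT), lower in DIK. The difference of its differences, into which that fall enters, was 10.67 ± 2.82 (edgeR adjusted p = 0.04). Its nose call was lost without WT replicate 2 or WT replicate 3 (edgeR adjusted p = 0.082 and 0.093).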

How the data were processed

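The groups compared were 6 RNA-seq libraries out of 18, 3 of DIK nose tumour and 3 of WT nose, and the counts of all 18 entered the fit. Per the labels, tissue was stored in RNAlater before TRIzol extraction, and an mRNA kit, which selects polyadenylated RNA, gave the libraries. The authors deposited whole-number counts of reads per gene, 1 column per library, made with fastp, HISAT2 2.1.0 and HTSeq 0.11.2 per the submitters' processing notes. No genome build, annotation or strand setting is given in the sources used here; reads of overlapping, antisense and near-identical genes could therefore be shared between them.

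Groups came from the labels. From the deposited counts, edgeR 4.0.16 (R 4.3.3) computed trimmed-mean scaling, a filter (at least 10 counts in a group-sized number of libraries, 15 in all) and a robust quasi-likelihood fit of 6 group means over all 18 libraries, with Benjamini-Hochberg adjustment over all 12895 genes tested and calls at an adjusted p under 0.05. Sharing the fit lets the other sites inform the spread, and with 3 libraries a group that spread is itself uncertain. CPM are counts divided by the scaled library size. Errors are the standard error of the log2 difference, and counting intervals, at 95%, and floors of 3 counts cover counting error only. The second test took the nose difference less the mean of the differences at the sites labelled mouth and scrotum. The model code was tested on simulated data. Alternatives were 3 other scalings, 2 other filters, DESeq2 1.42.0, limma 3.58.1 with voom and quality weights, a replicate block, the nose libraries alone, each library left out and stricter thresholds.

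Genes named are members of gene lists, the 15 largest differences without overlap and the 10 smallest adjusted p in each direction, the 10 largest differences from the other sites, and genes whose call 1 library decides. The comparison, its lists and this rule were chosen with earlier results of these data known. No sequences are shown, promoter motifs were not analysed here, and some genes are not reported here.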

Additional observations from a re-analysis of the deposited data

Results flagged for a closer look

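In 34 named genes the difference between DIK and WT at the nose differed from the mean of the differences at the sites labelled mouth and scrotum, by edgeR's test of that difference over all 12895 genes at an adjusted p under 0.05, and 6.35% of all genes tested did so. Values below are log2 differences of differences, the nose less the other sites. Among interferon-stimulated genes, EIF2AK2, ISG15, MX1 and USP18 had a higher difference at the nose, by 2.25, 3.78, 3.66 and 3.99. Among macrophage and antigen presentation genes, C1QA, C1QB, CD74 and GPNMB had a higher difference at the nose, by 2.23, 1.91, 1.85 and 4.15. Among matrix and complement genes, C1S, THBS2 and TNC had a higher difference at the nose, by 3.10, 2.01 and 3.00. Among squamous and clock genes and a lipid droplet gene, CRABP2, MT4, RPTN, NFIL3, RORA and CIDEA had a higher difference at the nose, by 2.60, 10.67, 7.72, 1.78, 3.28 and 3.04. Among genes of protein folding in the endoplasmic reticulum, CALR, HSPA5, PDIA4, SDF2L1 and XBP1 had a lower difference at the nose, by -1.50, -4.48, -3.25, -4.91 and -1.98. Among transport genes, ATP1B1, KCNN4, SLC12A2 and SLC2A1 had a lower difference at the nose, by -4.11, -9.35, -4.42 and -2.89. Among junction and adhesion genes, CLDN7, ITGB4 and PKP2 had a lower difference at the nose, by -3.17, -1.72 and -4.18. Among the remaining genes, ID4, INSIG1, PGAM1, PITX1 and WEE1 had a lower difference at the nose, by -1.66, -2.46, -1.57, -3.29 and -1.99. Of these, CALR, ITGB4, PGAM1, PKP2, CD74, C1QA, C1QB and WEE1 were not called in the nose comparison itself. Cell content of WT tissue differs between the sites, and its part in these values was not tested.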

How the results depend on the processing

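Over 3 other scalings, 2 other filters, DESeq2, limma-voom, a replicate block and the nose libraries alone, the nose comparison called 2288 to 3209 genes higher and 2136 to 3094 lower, against 2830 and 2596, and no call changed direction. Leaving out each library in turn gave 2130 to 2598 higher and 2026 to 2498 lower, lowest without WT replicate 3. At an adjusted p under 0.01, 1852 genes were higher. The count of genes that differed from the other sites moved more. Against 479 higher, it was 1192 with limma-voom, 303 with the replicate block and 87 at an adjusted p under 0.01, and 180 to 441 with 1 library left out. Against 340 lower, it was 532 with DESeq2, 1309 with limma-voom and 106 at an adjusted p under 0.01, and 153 to 298 with 1 library left out. The cause was not tested. ODC1, at 0.40, reversed to -1.90 with limma-voom and to -2.77 without DIK replicate 2, and lay between -2.77 and 0.97 with 1 library left out.

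Same-numbered DIK and WT nose libraries did not deviate together (correlations of 0.0042, 0.0074 and -0.012). Correlations over 3 libraries a group cannot show whether the numbers pair them, and the labels do not say what the numbers share. With the number as a replicate block, 2558 genes were higher and 2398 lower, and 230 of 237 named genes kept their direction and call. Median-of-ratios and upper-quartile scaling changed no call on the 237 named genes, and a scaling by library size alone lost 4. No scaling moved the median of all genes by over 0.1. Depth limits low genes most in WT replicate 1, where 3 counts are 5.76 CPM.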

Other observations

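Transcription factors of the head did not share a direction. Of 21 tested factors outside the branchial arch homeobox and HOX groups, 2 rose and 7 fell, against 21.9% and 20.1% of all tested genes. TBX15, a T-box factor of limb and head mesenchyme and of muscle, had 0.728, 1.62 and 1.37 CPM in DIK tumours, against 109, 64.3 and 77.6 CPM in WT nose (log2 difference -6.03 ± 0.51, edgeR adjusted p = 1.1e-07). PITX1, a factor of the lower jaw and hind limb, rose instead, with 7.28, 14.8 and 12.01 CPM in DIK tumours, against 0, 1.46 and 0.855 CPM in WT nose (log2 difference 3.45 ± 0.53, edgeR adjusted p = 9.5e-05). Between the paired factors TFAP2A and TFAP2B, TFAP2A had 481, 431 and 472 CPM in DIK tumours, against 42.2, 31.4 and 23.1 CPM in WT nose (log2 difference 3.87 ± 1.41, edgeR adjusted p = 0.041, and between 0.069 and 0.13 without any 1 library), and TFAP2B was not called, with 6.07, 2.96 and 6.55 CPM in DIK tumours, against 32.6, 43.4 and 27.6 CPM in WT nose.

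Chaperones changed in both directions. Of 23 tested heat shock genes, 6 rose and 9 fell (median -0.48). Among small chaperones abundant in muscle, HSPB6 had 12.4, 12.7 and 13.7 CPM in DIK tumours, against 1328, 940.5 and 1653 CPM in WT nose (log2 difference -6.66 ± 0.59, edgeR adjusted p = 1.8e-07), and CRYAB fell by 4.78. HSPD1 and HSPA9, which fold proteins in mitochondria, fell (log2 differences -1.76 and -1.43). DNAJB1, a co-chaperone, had 160.2, 139 and 142 CPM in DIK tumours, against 11.5, 14.2 and 9.83 CPM in WT nose (log2 difference 3.63 ± 0.70, edgeR adjusted p = 0.00075), and HSPA4 and HSPA8 rose by 1.73 and 1.44.

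Lipid storage genes fell more often than they rose. Of 19 tested adipocyte genes, 3 rose and 8 fell (median -1.25), against 21.9% and 20.1% of all tested genes. The adipocyte markers ADIPOQ and PLIN1 fell, from levels of at most 6.625 and 6.572 CPM in WT nose. PLIN2, PLIN4 and PLIN5, coats of lipid droplets, fell (log2 difference -2.37 for PLIN2, 146-fold lower, 95% counting interval 25.7 to 5833 for PLIN4, and 70.9-fold lower, 95% counting interval 23.8 to 348 for PLIN5). DGAT2, which makes triglyceride, had 93.5, 55.7 and 85.7 CPM in DIK tumours, against 1.92, 1.83 and 0.855 CPM in WT nose (log2 difference 5.86 ± 1.34, edgeR adjusted p = 0.0034), FABP5, the fatty acid carrier of epidermis, rose by 5.64, and CIDEA, a droplet protein, had 62.4, 40.7 and 74.3 CPM in DIK tumours, against 0, 3.65 and 3.63 CPM in WT nose (log2 difference 4.19 ± 0.47, edgeR adjusted p = 2.0e-06). In the clock, NPAS2, RORA, NFIL3 and BHLHE40 rose by 2.42, 1.94, 2.31 and 1.495, and CRY2 and TEF fell (log2 differences -2.33 and -1.59), while CLOCK was not called (0.02).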
